A study of Caenorhabditis elegans with 7 samples.

Results

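The F-box A (fbxa) genes of the nematode Caenorhabditis elegans were followed in 7 RNA sequencing libraries of early embryos, before gastrulation. Members were all genes of the count table whose symbol is fbxa followed by a number, 222 of 46748 genes. Of these, 170 are annotated as protein coding and 52 as pseudogenes. The mutant group held 4 libraries of genotype flp-21(ok889), numbered 11, 22, 29 and 30, and flp-21 encodes a FMRFamide-like neuropeptide. The wildtype group held 3 libraries of the strain N2, numbered 11, 22 and 30. Embryos of both groups came from mothers that carried very few eggs, and the series title concerns provisioning by the mother. The labels name neither age nor culture, and p-values then reflect only how far these libraries scatter, which may be technical.

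F-box proteins are the substrate receptors of SCF ubiquitin ligases. Through the F-box they dock on a Skp1-related (SKR) adaptor, which sits on the cullin CUL-1, and a second part of the protein picks the target that is to be marked with ubiquitin. In F-box A proteins that second part is usually a domain named after FOG-2, the family relative that works with the RNA-binding protein GLD-1 to allow sperm to be made in hermaphrodites. The family is far larger in Caenorhabditis than in most animals, its genes often lie in tandem arrays, and few members have a known target.

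Levels are given as CPM, counts scaled to a common library size by the trimmed mean of M-values (TMM), and levels of different genes are compared per kilobase of exon. Values by library stand in the order 11, 22, 29, 30 for the mutant and 11, 22, 30 for wildtype. Each library held 34164612 to 53620276 counts in total, so a single count (1) stood for 0.0181 to 0.0377 CPM. Finding 0 counts allows up to 3 counts, which is 0.0542 to 0.113 CPM. Such limits, and the interval below, hold for counting error alone. Reads of flp-21 were too few to use. It had 2, 1, 5 and 9 counts in the mutant against 24, 2 and 6 in wildtype, so its counts cannot check the genotype labels. All 8 maternal early embryo markers were found, at summed levels of 7525 to 9558 CPM in mutant and 3176 to 6882 CPM in wildtype libraries. In edgeR, at an adjusted p of 0.05, 3 of the 8 were higher in the mutant (37.5%) and 0 lower, against 9.01% and 29.4% of all tested genes. Their median log2 fold change was 1.04, against -0.214 over all tested genes. The 9 early zygotic markers summed to 224 to 294 CPM in mutant and 9.07 to 106 CPM in wildtype libraries. The wildtype libraries also held transcripts of other sources. The 35 major sperm protein genes summed to 8118 to 15280 CPM in wildtype and 35.7 to 114 CPM in the mutant, and the 6 yolk protein genes of the adult intestine to 2626 to 48600 CPM and 0.438 to 921 CPM. None of the sperm or yolk genes was at 0 in every library. The sums of the 6 markers of cuticle and the 5 of body wall muscle were likewise higher in wildtype, at 171 to 2182 and 1258 to 3355 CPM against 0.511 to 54.9 and 191 to 403 CPM. Most of the cuticle sum came from col-19 (means 873 CPM in wildtype and 24.6 CPM in the mutant), and 4 of the 6 were not tested. All 5 muscle markers fell in edgeR, and most of their mutant sum came from act-4 (mean 260 CPM). The groups overlapped for the cuticle marker sqt-3 and the muscle marker unc-22. The 6 neuron markers summed to 118 to 347 CPM in wildtype against 214 to 369 CPM in the mutant, mostly from snb-1 (means 172 and 241 CPM). They did not move together. Both rab-3 and egl-21 were higher in wildtype, with means of 1.59 and 10.3 CPM against 0.236 and 0.588 CPM (edgeR adjusted p = 0.0186 and 0.00408). The marker unc-31 was higher in the mutant, at 7.4 against 2.44 CPM (edgeR adjusted p = 0.0215), and 3 did not pass. In bulk libraries such as these, fewer cells of a type and less RNA per cell cannot be told apart. In mutant libraries 11, 22, 29 and 30 the yolk genes summed to 0.438, 921, 856.5 and 4.995 CPM. Mutant libraries 22 and 29 were also the most alike over the tested genes. Their log2 CPM correlated at 0.992, and those of other pairs within a group at 0.855 to 0.973. The labels do not say whether they are separate cultures, and SDs and p-values count them as independent.

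A single gene carried much of what the family put into the embryo. The protein coding gene fbxa-215 (WBGene00012879, chromosome IV from 13665344 to 13666911, build WBcel235) was at 578, 402, 471 and 464 CPM in the mutant. It was at 170, 153 and 136 CPM in wildtype. All 4 mutant libraries lay above all 3 wildtype libraries. The means were 479 ± 73.2 CPM (SD, n = 4) and 153 ± 16.7 CPM (SD, n = 3), and fbxa-215 was 3.13-fold higher in the mutant (edgeR quasi-likelihood log2 fold change 1.65, SE 0.31, adjusted p = 0.00275). Per kilobase it stood at 350 CPM in mutant and 112 CPM in wildtype libraries. In the mutant fbxa-210 came next, with 75.2 CPM per kilobase, and in wildtype fbxa-101, with 32.8 CPM per kilobase, just above fbxa-210 with 31.1. Between 41.6% and 58.4% of the family's counts in the mutant libraries and 26.3% to 34.0% in the wildtype libraries fell on fbxa-215.

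With TMM scaling, the summed level of all 222 members was higher in every mutant library than in any wildtype library. It was 1058, 695, 808 and 1114 CPM in the mutant against 498, 582 and 450 CPM in wildtype. The group means were 919 ± 200 CPM (SD, n = 4) and 510.0 ± 66.9 CPM (SD, n = 3). This separation rested on fbxa-215. Without it the sum of the remaining members overlapped between the groups, and mutant library 22 was the lowest of all libraries. The 13 other members with a mean of 5 CPM or more summed to 238 to 551 CPM in the mutant and 159 to 229 CPM in wildtype. The 208 members with a mean under 5 CPM went the other way as a sum. Their mean was 75.6 ± 18.9 CPM (SD, n = 4) in mutant libraries and 167 ± 81.1 CPM (SD, n = 3) in those of wildtype, and wildtype library 30, at 84.3 CPM, lay within the mutant range of 54.5 to 99.4 CPM.

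**Figure D1:**
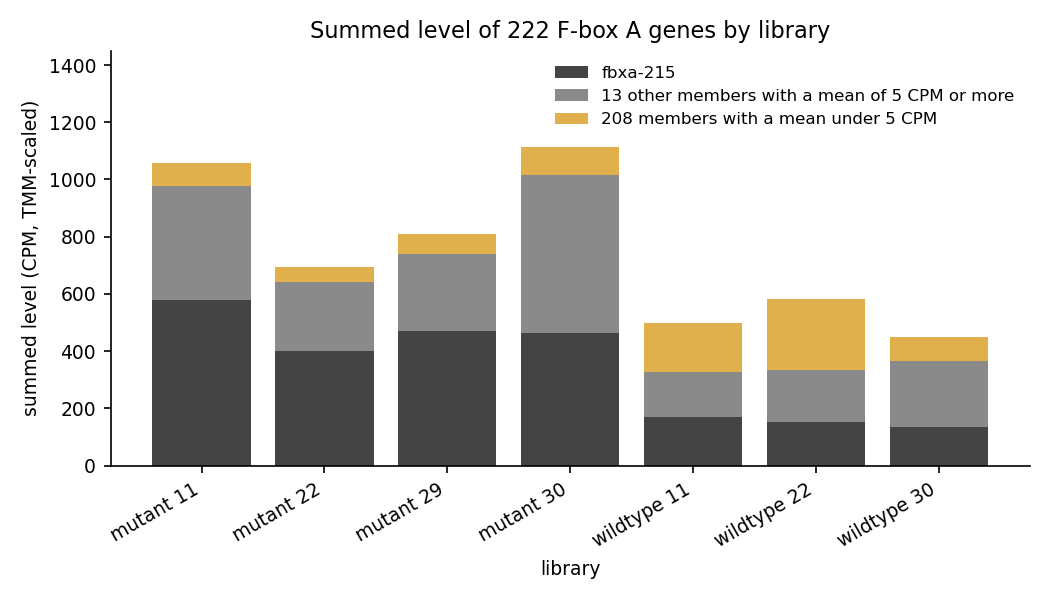
Summed level of the 222 F-box A genes in each library (bars, CPM), split into fbxa-215, the 13 other members with a mean of 5 CPM or more, and the 208 members with a mean under 5 CPM. The total is highest in mutant library 30 at 1114 CPM and lowest in wildtype library 30 at 450 CPM, and the part from the 208 low members is largest in wildtype library 22 at 246 CPM.

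Most members had few counts in these embryos. Of the 222, 87 passed the filter on low counts and were tested, 64 of 170 protein coding genes and 23 of 52 pseudogenes. Over all genes 13035 of 46748 were tested, with 12300 of 19641 protein coding genes and 499 of 2074 pseudogenes. The other 135 members had a median of 12 counts over the 7 libraries together, and 15 of them had none in any. Not all were silent, since the highest count of an untested member in a single library was 159. Members with at least 10 counts numbered 53 to 66 per mutant library against 127, 114 and 74 in wildtype. Over all genes the numbers also differed, at 10753 to 12129 per mutant library against 15105, 12925 and 12511 in wildtype. Of the 87 tested members, 22 reached the filter level in no mutant library and so were tested only through wildtype, while every one reached it in some wildtype library. Those 22 could be called in no direction but a fall.

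Among the tested members, 7 rose and 32 fell in the mutant, and 48 did not pass an adjusted p of 0.05. Over all 13035 tested genes 9.01% rose and 29.4% fell. The members' shares were 8.05% and 36.8%. The share of falls cannot be read as an excess, since all 22 members without a mutant library at the filter level are among the 32 falls, and over all tested genes such genes numbered 1052 of 13035. The members' median log2 fold change was -1.33, also when the members without a mutant count are set at their bound, against -0.21 over all tested genes. Those 22 members enter this median as well, so it is no measure of a shift of the family. It was -2.79 without wildtype library 30 and -0.66 without wildtype library 22 (all genes -0.185 and -0.199). With a filter of 5 CPM in 3 libraries it was 0.744 over 16 tested members (all genes 0.0466). The rises ran from 1.27 to 3.11 on the log2 scale. The falls ran from -2.62 to -5.72, apart from 3 members with at most 3 mutant counts in all (fbxa-125, fbxa-117 and fbxa-201), which are given below as bounds or a count ratio. The number of rises depended on single libraries, with 3 without wildtype library 22 and 4 without mutant library 11. The mutant libraries lay wholly above those of wildtype for 14 tested members and wholly below for 36, where 14.1% and 30.5% of all tested genes did so.

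**Figure D2:**
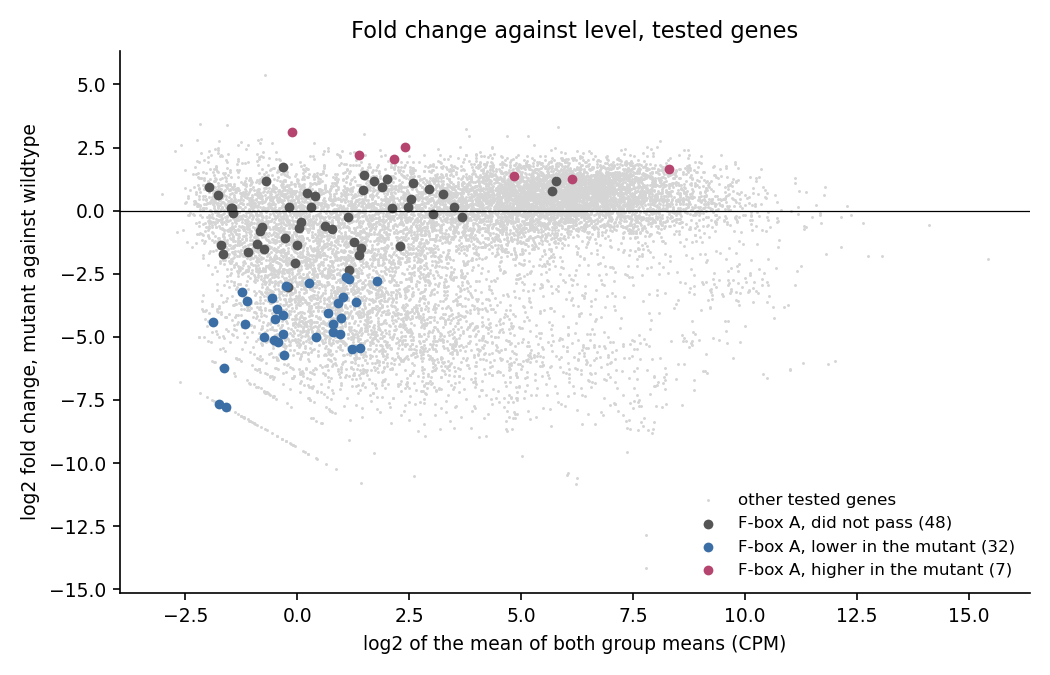
Log2 fold change of mutant against wildtype (vertical axis) against the log2 of the mean of both group means (horizontal axis, CPM) for the 13035 tested genes, with the 87 tested F-box A genes in colour. The 32 members that fell all lie at low levels, with wildtype means from 0.521 to 6.01 CPM, and the 7 that rose include fbxa-215, the most abundant.

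Rises and falls were split by level. Of 14 members with a mean of 5 CPM or more, 4 rose (28.6%) and 0 fell, where 14.3% and 21.6% of all tested genes at that level did so. None of the 14 was lower at an unadjusted p under 0.05 either, in edgeR, and DESeq2 called 0 of them lower. DESeq2 called 28.2% of genes lower over every level together, which is not a set of like level. Between 1 and 5 CPM 2 of 36 members rose and 15 fell (41.7%), where 1.06% of all genes at that level rose and 49.3% fell. Under 1 CPM 1 of 37 tested members rose and 17 fell (45.9%), where 0.93% of all genes at that level rose and 30.1% fell. At this lowest level 16 of the 37 members and 509 of the 2150 genes reached the filter in no mutant library and could be called only as falls, so the shares of falls are no measure of a difference. These levels were chosen after the values were seen.

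Beside fbxa-215, 2 other abundant members rose. One was fbxa-170 (WBGene00016486, chromosome X from 1676205 to 1678107), with 47.7, 40.0, 40.5 and 38 CPM in the mutant. In wildtype libraries 11, 22 and 30 it had 16.3, 15.9 and 16.1 CPM, so the wildtype libraries were close together and all mutant libraries lay above them. It was 2.58-fold higher in the mutant (edgeR log2 fold change 1.37, SE 0.33, adjusted p = 0.00882). The group means were 41.6 ± 4.22 CPM (SD, n = 4) and 16.1 ± 0.231 CPM (SD, n = 3).

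The other was fbxa-210 (WBGene00012565, chromosome V from 18125375 to 18127205), at 111, 64.7, 74.2 and 149 CPM in the mutant against 33.2, 33.8 and 56.9 CPM in wildtype. Its groups did not overlap, yet mutant library 22 and wildtype library 30 came close. The log2 fold change was 1.27 (SE 0.41, edgeR adjusted p = 0.0319). Without 1 library its adjusted p ran up to 0.0858, and the call was lost on leaving out mutant library 11, mutant library 30, wildtype library 11 or wildtype library 22.

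The other 4 rises were those of less abundant genes, of which fbxa-143 alone has a mean of 5 CPM or more. For fbxa-83 (WBGene00013453, chromosome IV from 14323247 to 14325665) the mutant libraries held 7.16, 5.41, 8.42 and 7.95 CPM and the wildtype libraries 2.67, 1.14 and 1.47 CPM (edgeR log2 fold change 2.03, SE 0.54, adjusted p = 0.0137), and 4.20% of its exon bases are shared with another gene. Its call was lost without mutant libraries 22 and 29 together (adjusted p = 0.0656), as was that of fbxa-170 (0.0612). For fbxa-143 (WBGene00044661, chromosome V from 16125811 to 16127497) they held 11.7, 7.51, 9.88 and 6.94 CPM and 2.60, 1.67 and 0.339 CPM (edgeR log2 fold change 2.54, SE 0.70, adjusted p = 0.0168). Wildtype library 30 was far the lowest for fbxa-143, and the call was lost without wildtype library 22 (adjusted p = 0.0506). The gene fbxa-2 (WBGene00011752, chromosome V from 16268239 to 16269541) had 4.80, 1.76, 3.14 and 7.32 CPM in the mutant against 1.22, 0.792 and 0.716 CPM in wildtype. It passed at an edgeR adjusted p of 0.0228 and not without mutant library 11 (0.0579) or wildtype library 22 (0.0580). The gene with the largest fold change, fbxa-104 (WBGene00011542, chromosome V from 15421673 to 15423658), rested on few counts. It had 94, 61, 115 and 33 counts in the mutant against 19, 4 and 0 in wildtype (edgeR log2 fold change 3.11, SE 1.02, adjusted p = 0.0353), and leaving out mutant library 11, 22 or 29 or wildtype library 22 ended the call. All 7 of these genes are protein coding.

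Of the remaining abundant members several lay higher in the mutant without passing. The gene fbxa-206 (WBGene00013610, chromosome V from 16917196 to 16918478) had 76.4, 41.6, 48.3 and 136 CPM in the mutant against 26.9, 31.6 and 42.2 CPM in wildtype. Mutant library 22 overlapped wildtype library 30, and the log2 fold change of 1.17 (SE 0.46) had an edgeR adjusted p of 0.0724. It passed with library size alone (adjusted p = 0.0302), with DESeq2 (0.0272) and without wildtype library 30 (0.0452). For fbxa-101 (WBGene00008569, chromosome I from 12958639 to 12959955) the values were 63.8, 38.7, 44.0 and 112 CPM against 28.4, 39.8 and 45.7 CPM, with overlapping groups (log2 fold change 0.77, edgeR adjusted p = 0.198). The gene fbxa-95 stood at 11.6 ± 4.97 CPM (SD, n = 4) and 13.9 ± 9.92 CPM (SD, n = 3), where wildtype library 30, at 25.2 CPM, lay above all others (log2 fold change -0.26, edgeR adjusted p = 0.756), and the sign turned to 0.61 without that library. Among these abundant genes mutant library 30 was often the highest of its group.

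**Figure D3:**
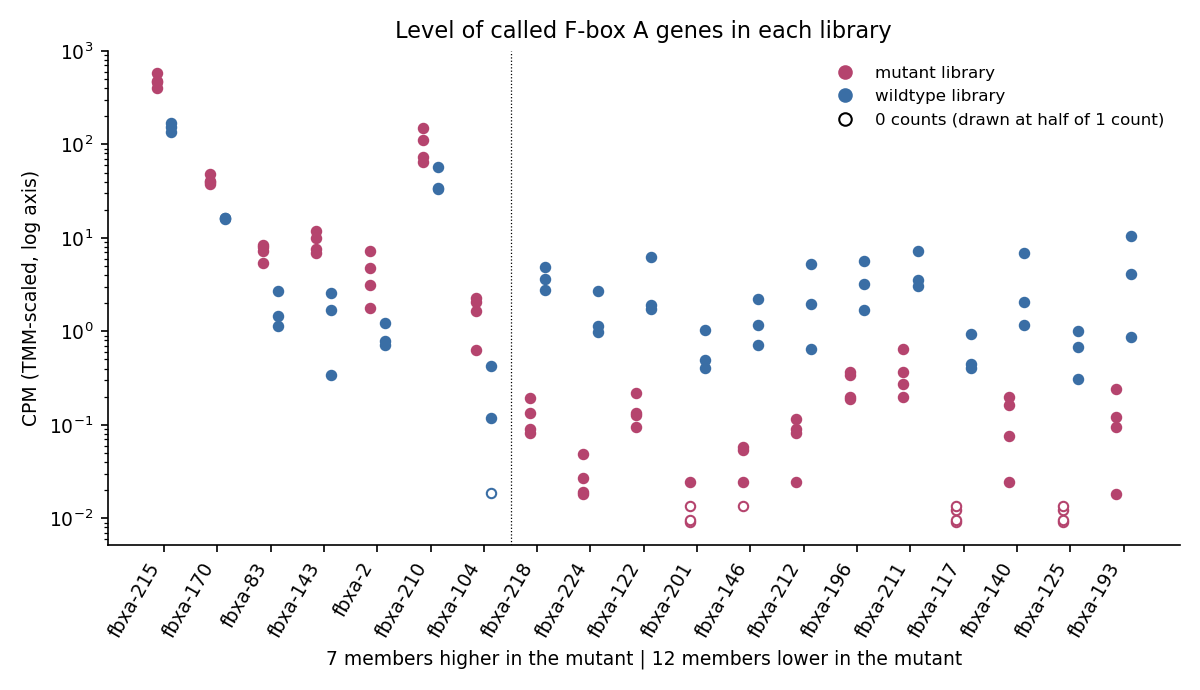
Level in each library (points, CPM, log axis) of the 7 F-box A genes that rose and the 12 with the smallest p-values among those that fell. Open points mark libraries with 0 counts, drawn below the level of 1 count. The falls lie at 0.648 CPM or less in every mutant library, and fbxa-125 and fbxa-117 had 0 counts in all 4 of them.

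The falls took genes of low level in wildtype to a trace in the mutant. The smallest p-value was that of fbxa-218 (WBGene00013036, chromosome III from 12436552 to 12441104), a protein coding gene with 8, 3, 5 and 7 counts in the mutant against 123, 167 and 96 counts in wildtype. Its mean fell from 3.75 ± 1.09 CPM (SD, n = 3) to 0.125 ± 0.0519 CPM (SD, n = 4), and the fitted fold was 29.4-fold lower (edgeR log2 fold change -4.88, SE 0.63, adjusted p = 5.21e-04). The gene fbxa-224 (WBGene00022890, chromosome II from 7546820 to 7548129) had 2, 1, 1 and 1 counts in the mutant against 51, 92 and 26 in wildtype (edgeR log2 fold change -5.72, SE 0.77, adjusted p = 6.05e-04). For both genes every wildtype library was well above every mutant library.

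Several falls ended at or near 0 counts. The genes fbxa-125 (WBGene00015229, chromosome I from 10646762 to 10647777) and fbxa-117 (a pseudogene, WBGene00014907, chromosome V from 18310924 to 18311985) had 0 counts in all 4 mutant libraries. In wildtype libraries 11, 22 and 30 they had 14, 34 and 18 counts and 18, 32 and 12 counts. With a floor of 3 counts per mutant library, fbxa-125 was at least 9.98-fold lower and fbxa-117 at least 9.0-fold lower in the mutant (edgeR adjusted p = 0.00253 and 0.00243). The gene fbxa-201 (WBGene00020342, chromosome V from 1975418 to 1977261) had 1 count in all mutant libraries together and 66 in those of wildtype. Per total counts this is a ratio of 102.0 with a 95% exact interval from 17.7 to 4080 (edgeR adjusted p = 0.00145).

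Protein coding genes with more counts fell as well. The gene fbxa-196 (WBGene00020265, chromosome V from 6448661 to 6450218) had 15, 7, 11 and 18 counts in the mutant against 143, 191 and 45 in wildtype. By edgeR it fell by 3.66 on the log2 scale (SE 0.64, adjusted p = 0.00192), and the groups stood well apart. The gene fbxa-140 (WBGene00008130, chromosome I from 12960372 to 12961606) had 1, 6, 11 and 4 counts in the mutant against 92, 234 and 31 in wildtype (edgeR log2 fold change -4.82, SE 0.89, adjusted p = 0.00246).

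Pseudogenes gave 14 of the 32 falls and none of the rises. Of the 23 pseudogenes tested 60.9% fell, where 49.7% of all tested pseudogenes of the genome fell and 1.2% rose. Of these, 9 of the 23 and 133 of the 499 reached the filter in no mutant library and could be called only as falls. Of the 64 protein coding members tested 7 rose (10.9%) and 18 fell (28.1%), where 9.37% and 28.7% of all tested protein coding genes did so. In the edgeR fit over all 7 libraries 0 of the pseudogene members rose, 0 at an unadjusted p under 0.05, and DESeq2 called 0 higher. The pseudogene fbxa-198, with 22, 11, 13 and 21 counts in the mutant against 49, 122 and 0 in wildtype, lay above wildtype library 30 in every mutant library. The pseudogene fbxa-122 (WBGene00014917, chromosome I from 12006911 to 12008040) had 9, 5, 7 and 5 counts in the mutant against 85, 215 and 46 counts in wildtype (edgeR log2 fold change -4.50, SE 0.72, adjusted p = 0.00128). The pseudogene fbxa-193 (WBGene00010295, chromosome V from 17653482 to 17655281) had 5, 9, 1 and 5 counts and 185, 356 and 23 counts (edgeR log2 fold change -5.44, SE 1.02, adjusted p = 0.00263). In both, wildtype library 22 was the highest and wildtype library 30 the lowest of its group. The pseudogenes fbxa-146 (chromosome II from 3814376 to 3815458) and fbxa-212 (chromosome V from 18134722 to 18136022) fell with log2 fold changes of -5.14 and -5.0 (edgeR adjusted p = 0.00152 and 0.00185).

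The wildtype libraries were not alike in these genes. Of the 32 members that fell, 22 were highest in wildtype library 22, 10 in wildtype library 11 and 0 in wildtype library 30, and 24 were lowest of their group in wildtype library 30. The summed level of the 52 pseudogenes was 14.4, 11.9, 13.4 and 15.9 CPM in the mutant against 52.2, 110 and 20.3 CPM in wildtype. Yolk transcripts had the same order among the wildtype libraries, at 42140, 48600 and 2626 CPM, and the sperm transcripts, at 8118, 12450 and 15280 CPM, another. Their part in these results was not tested. Without wildtype library 30, 64 members fell of 117 tested, with a median log2 fold change of -2.79 against -0.185 over all genes. The share of all genes that fell in that fit is not given here, so this count is no measure of an excess. Without wildtype libraries 11 and 22, which leaves wildtype library 30 alone and assumed to vary as the mutant libraries do, the members' median log2 fold change was -0.0223. In that fit log2 fold changes ran from -4.79 to -2.37 for fbxa-218, fbxa-224, fbxa-155, fbxa-146, fbxa-122, fbxa-211 and fbxa-196. They ran from 1.61 to 4.97 for fbxa-170, fbxa-215, fbxa-83 and fbxa-143. For fbxa-104 and fbxa-198, with 0 counts in wildtype library 30, they were positive. All of these were named after their values were seen.

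**Figure D4:**
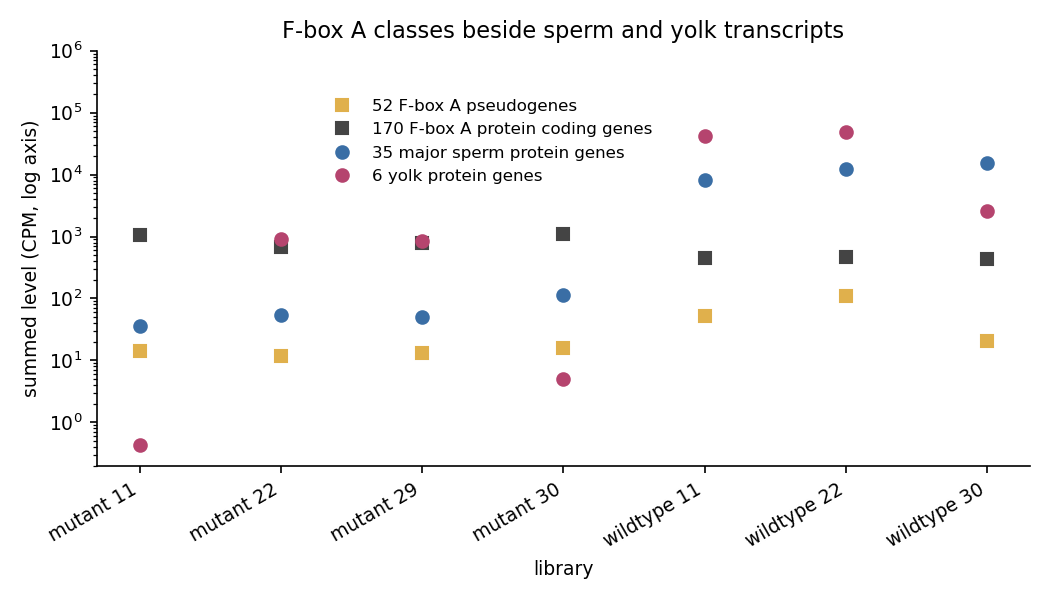
Summed level in each library (points, CPM, log axis) of the 52 F-box A pseudogenes, the 170 protein coding F-box A genes, the 35 major sperm protein genes and the 6 yolk protein genes. The pseudogenes reach 110 CPM in wildtype library 22 and 20.3 CPM in wildtype library 30, against 11.9 to 15.9 CPM in the mutant libraries. The sum of the protein coding members is higher in every mutant library than in any wildtype library, but without fbxa-215 that sum overlaps between the groups. Of the 64 protein coding members tested, 7 rose and 18 fell.

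The family lies in tandem arrays, and genes side by side did not share one pattern. Members with at most 10 kb between neighbours formed 37 runs that hold 160 genes, and 62 members stand alone. Chromosome V carries 92 members and chromosome III 73. On chromosome V 12 of 38 tested members fell (31.6%) and 4 rose (10.5%), near the 29.4% and 9.01% of all tested genes. On chromosome III 9 of 19 fell (47.4%) and 0 rose, and 8 of the 19 reached the filter in no mutant library. The longest run, on chromosome III from 1236015 to 1324633, has 29 members, of which 11 were tested. There 5 fell and 6 did not pass, too few to set against the 29.4% of all tested genes. Among the latter fbxa-76, named after its values were seen, stood at 5.81 ± 2.44 CPM (SD, n = 4) and 5.22 ± 1.49 CPM (SD, n = 3).

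Opposite changes met in a single run, a group of 4 genes within 12 kb on chromosome V that all lie on the plus strand. In order along the chromosome they are fbxa-107, fbxa-210, fbxa-211 and the pseudogene fbxa-212. The abundant fbxa-210 rose, as given above. The next gene, fbxa-211 (WBGene00012566, chromosome V from 18127687 to 18128881), lies 481 bases beyond its end and fell. It had 15, 10, 11 and 34 counts in the mutant against 137, 246 and 94 in wildtype (edgeR log2 fold change -3.62, SE 0.65, adjusted p = 0.00210). The fall of fbxa-211 held in every alternative that tested it, while the rise of fbxa-210 did not. The first gene, fbxa-107, named for its place, lies 129 bases before fbxa-210 and did not pass (edgeR adjusted p = 0.423), at 11.7 ± 8.21 CPM (SD, n = 4) and 7.37 ± 2.14 CPM (SD, n = 3).

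Similar contrasts were found in 2 close pairs, picked with their values known. On chromosome I fbxa-140, which fell, lies 416 bases from fbxa-101, which did not pass and had 38.7 to 112 CPM in the mutant libraries. On chromosome V the pseudogene fbxa-207, with 12, 17, 25 and 9 counts in the mutant against 135, 263 and 14 in wildtype (edgeR log2 fold change -3.44, SE 0.86, adjusted p = 0.0105), lies 1301 bases from the abundant fbxa-206. The fall of fbxa-207 was lost without wildtype library 22. Reads shared by close copies could not be assigned with certainty, so part of the counts of a low member may come from an abundant relative, or the reverse.

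**Figure D5:**
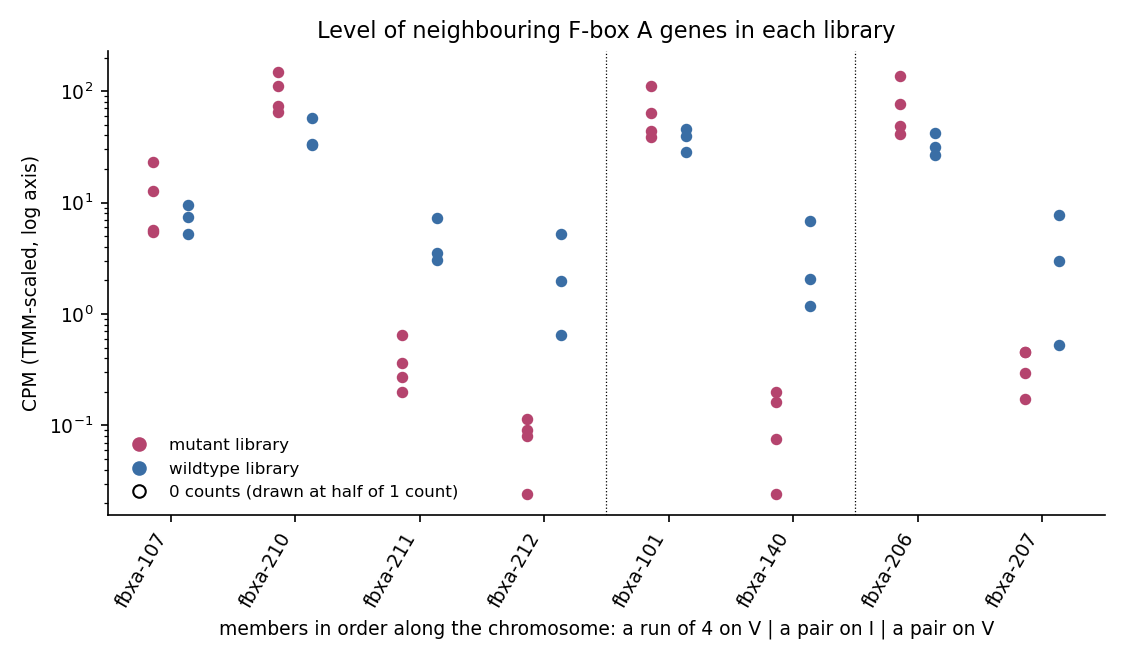
Level in each library (points, CPM, log axis) of neighbouring F-box A genes in their order along the chromosome, for the run of 4 on chromosome V and for 2 pairs. In each set a gene at 38.7 CPM or more in every mutant library stands beside one at 0.648 CPM or less in every mutant library, and fbxa-210 and fbxa-211 differ in direction.

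The 2 members with a role looked up by name were at the floor. FBXA-75 and FBXA-158 act with the cullin CUL-6 and Skp1-related proteins in the response to intracellular pathogens. Here fbxa-75 had 0 counts in all 7 libraries, and fbxa-158 had 1 count in mutant library 29, 4 in wildtype library 11 and 0 elsewhere. The cullin gene cul-6 had 35, 72, 116 and 66 counts in the mutant against 56, 52 and 0 in wildtype, and did not pass (log2 fold change 0.72, edgeR adjusted p = 0.618). The adaptor gene skr-4 of the same response had 7 counts in mutant library 22, 0 in the other mutant libraries against 412, 247 and 13 in wildtype, and fell (edgeR log2 fold change -6.97, SE 1.51, adjusted p = 0.00535). It reached the filter level in no mutant library, so only a fall could be called. The Skp1-related gene skr-3 overlapped between the groups and did not pass (edgeR log2 fold change -1.01, adjusted p = 0.183). Too low to be tested, skr-5 had 5, 4, 11 and 2 counts in the mutant against 2, 6 and 0 in wildtype.

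The core of the ligase that F-box proteins join was abundant in both groups. Of 25 SCF core genes found, 23 were tested, 2 rose and 2 fell (8.7% each, median log2 fold change 0.45), where 9.01% and 29.4% of all tested genes did so. Of the 23, 2 reached the filter in no mutant library and could be called only as falls. The cullin gene cul-1 rose from 211 ± 54.4 CPM (SD, n = 3) to 453 ± 127 CPM (SD, n = 4) (edgeR log2 fold change 1.10, SE 0.36, adjusted p = 0.0352). The adaptor gene skr-16 rose from 10.3 ± 5.72 CPM to 38.3 ± 16.5 CPM (log2 fold change 1.89, edgeR adjusted p = 0.0252). The call of cul-1 was lost without mutant library 11, 22 or 29 or wildtype library 11 (adjusted p up to 0.110), and that of skr-16 without mutant library 11 or 30 (0.0669 and 0.0513). Beside skr-4, skr-11 fell, with 1, 8, 3 and 4 counts in the mutant against 458, 567 and 80 in wildtype (edgeR log2 fold change -6.74, SE 0.91, adjusted p = 6.05e-04). The main adaptor genes skr-1 and skr-2 and the RING gene rbx-1 overlapped between the groups, with log2 fold changes of 0.45, 0.24 and 0.39 (edgeR adjusted p = 0.355, 0.802 and 0.703). Mutant library 30 was the highest of all libraries for these 3 genes, and without it skr-2 and rbx-1 turned to -0.27 and -0.33.

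The same shares of all genes apply to the lists that follow. Most regulators of the cullin and single F-box genes with known roles did not pass the test. Of 6 genes for NEDD8 attachment and exchange of F-box proteins, ula-1 rose from 44.7 ± 6.13 CPM (SD, n = 3) to 84.5 ± 7.90 CPM (SD, n = 4) (log2 fold change 0.92, edgeR adjusted p = 0.0343), and 5 did not pass, among them cand-1 and dcn-1 at log2 fold changes of 0.71 and 0.36. The call of ula-1 was lost on leaving out any 1 of the mutant libraries, or wildtype library 11 (adjusted p from 0.0509 to 0.10). Of 8 F-box genes with named roles, mec-15, which acts in touch neurons, rose from 81.1 ± 1.95 CPM (SD, n = 3) to 176 ± 28.6 CPM (SD, n = 4) (log2 fold change 1.12, edgeR adjusted p = 0.0141) and 7 did not pass. It did not pass without mutant library 11 (adjusted p = 0.0566). The family relative fog-2 had 35.2 ± 11 CPM (SD, n = 4) in mutant and 21.6 ± 4.46 CPM (SD, n = 3) in wildtype libraries, with overlapping groups (edgeR log2 fold change 0.71, SE 0.38, adjusted p = 0.180). The genes fsn-1 and sel-10 had log2 fold changes of -0.90 and 0.98 (edgeR adjusted p = 0.0582 and 0.0656).

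The other F-box families gave other counts in the same fit. Of 113 F-box B genes 101 were tested and 0 changed in edgeR, with 1 at an unadjusted p under 0.05 and 1 called by DESeq2, and the median log2 fold change was 0.55. Their summed level was 259 to 380 CPM in the mutant against 231, 33.7 and 474 CPM in wildtype, a wide spread. The genes fbxb-68, fbxb-97 and fbxb-100 had the smallest p-values (edgeR adjusted p = 0.105, 0.110 and 0.114). Of 56 F-box C genes 41 were tested, 1 rose (2.44%) and 7 fell (17.1%), with a median of 0.31. Of the 41, 5 reached the filter in no mutant library and could be called only as falls, while 0 of the tested F-box B genes were so placed. The rise was that of fbxc-54, from 1.32 ± 0.403 CPM to 4.02 ± 0.862 CPM, a call lost on leaving out any 1 of the mutant libraries, or wildtype library 22 (edgeR adjusted p from 0.0627 to 0.0948). The falls included fbxc-46 and fbxc-43, at log2 fold changes of -3.50 and -5.52. Whether the families differ was not tested.

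The authors' deposited table of their own DESeq2 comparison lists 22 members, 6 higher and 16 lower in the mutant, and 19 of them were called in the same direction here. In the authors' deposited table fbxa-215 has a log2 fold change of 1.70 and fbxa-218 one of -4.85. Of the 39 members called here, 20 are absent from the authors' deposited table.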

How the data were processed

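Total RNA of early embryos was made into libraries with a TruSeq kit, per the labels' protocols. The deposited values are raw counts per gene from featureCounts 1.6.4 on exons, with no option for strand, multiple mapping or pairs, per the file headers. BWA, DESeq2 and build WBcel235 come from the submitters' processing notes. BWA does not split reads across introns, and reads of near-identical copies cannot be assigned with certainty. The authors' deposited comparison holds mean normalized counts (a signal), log2 fold changes, a test score and p-values, and only its log2 fold changes and p-values were read.

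Symbols came from a gene name table for 170 members and, for 52 pseudogenes, through RefSeq locus tags. In all 45591 of 46748 genes had a symbol, and 2 genes share the symbol fbxa-41. Coordinates are those of the count table. Counts were tested with edgeR 4.0.16 in R 4.3.3 (quasi-likelihood F-test, robust, TMM scaling, genotype as the term). Genes needed the equivalent of 10 counts in a library of median size in at least 3 libraries, and p-values were adjusted by Benjamini-Hochberg over 13035 genes at a threshold of 0.05. The SE is the log2 fold change over the square root of F. Alternatives were other scalings, DESeq2 1.42.0, other filters, left out libraries and a replicate block.

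The members named are those past the threshold, at most 12 with the smallest p in each direction, the 6 with the highest level, the 3 with the highest level per kilobase, and fbxa-75 and fbxa-158. Outside this rule fbxa-155, fbxa-207, fbxa-76, fbxa-107 and fbxa-198 are named, chosen after their values were seen. Of the pathway lists, 6 genes and up to 3 further genes per list are named. The genes skr-3 and skr-5 and the named neuron, cuticle and muscle markers were added after their values were seen. Members and lists were chosen with earlier results of these data known. No sequences are shown.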

Additional observations from a re-analysis of the deposited data

Results flagged for a closer look

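Among 52 groups of 4 mutant libraries looked at, 6 held 1 library whose gap to its nearest neighbour took most of the group's range (Dixon's critical value at the 95% level). Chance alone marks about 1 group in 20 where values vary continuously. A gene with counts in 1 mutant library and 0 in the others is marked in any case. That holds for fbxa-201, fbxa-158 and skr-4, so the rate does not apply to them. For fbxa-201 mutant library 11 was at 0.0244 CPM and for fbxa-158 mutant library 29 at 0.0181 CPM, in both cases 1 count where the other mutant libraries had 0. For skr-4 mutant library 22 was at 0.189 CPM with the others at 0. Mutant library 30 stood above the others at 439 CPM for skr-1, at 858 CPM for rbx-1 and at 2.14 CPM for fbxb-97. No cause was tested.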

How the results depend on the processing

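The count of F-box A genes that rose (7 of 87) was 15 of 156 with DESeq2 and 3 with a filter of 5 CPM in 3 libraries. It was 4 without mutant libraries 22 and 29, and 3 to 8 when 1 library was left out. The count that fell (32 of 87) was 61 of 156 with DESeq2 and 62 of 207 with no filter beyond 1 count, where more members were tested. It was 0 of 16 tested with the 5 CPM filter (0 at an unadjusted p under 0.05), and 26 to 64 when 1 library was left out. Over all genes the count that rose (1175) was 748 with upper quartile scaling, 1835 with DESeq2, 505 with the 5 CPM filter, 339 without mutant libraries 22 and 29, 589 without the block on the libraries numbered 11, 22 and 30, and 589 to 2505 with 1 library left out. The count over all genes that fell (3829) was 1564 with the 5 CPM filter, 1906 without wildtype libraries 11 and 22, and 3058 to 4777 with 1 library left out. Of the members' calls, 1 of 7 rises (fbxa-215) and 10 of 32 falls held in every alternative that tested them.

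The log2 fold change of fbxa-95 turned to 0.062 with library size alone and 0.091 without mutant libraries 22 and 29, and ran from -0.60 to 0.61 with 1 library left out. That of skr-2 ran from -0.27 (without mutant library 30) to 1.43, that of rbx-1 from -0.33 (likewise) to 1.65, and without wildtype libraries 11 and 22 they were -0.57 and -0.46. The cause was not tested. Scaling moved the median over all genes tested from -0.21 (TMM) to -0.42 (upper quartile), -0.06 (DESeq2 size factors) or 0.01 (library size).

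With the replicate number as a block over the libraries numbered 11, 22 and 30, 6 members rose and 24 fell (the calls of fbxa-83 and fbxa-2 did not pass), and over all genes 1314 rose and 2980 fell. On the same libraries without the block, an alternative chosen after seeing the data, 6 members rose and 26 fell, and over all genes 589 and 3215. Deviations of libraries with the same number correlated at -0.197, 0.068 and 0.456, so the numbers were not taken to pair them, and mutant library 22 correlated best with wildtype library 11 (0.344).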
